A study of Mus musculus with 4 samples.

Results

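A set of 10 genes of Nodal and bone morphogenetic protein (BMP) signalling were read out in early mouse blastocysts. One group arose from in vitro fertilization (IVF). The other was cloned by nuclear transfer from somatic cells (SCNT), which puts a somatic nucleus in place of the egg's own. The 10 members were taken by symbol as Nodal, Tdgf1, Gdf3, Lefty1, Lefty2, Bmp4, Acvr2b, Fst, Id1 and Id3, and all of them were listed among the 23235 gene symbols of each library. They were chosen by name as a signalling set of the epiblast, the part of the inner cell mass that forms the embryo proper. Earlier results of these data were known when the choice was made. Every library held whole blastocysts, so no value here was measured in isolated epiblast.

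Each group had 2 libraries, and each library pooled 6 embryos lysed at 96 hours, counted from fertilization in IVF and from activation in SCNT. IVF joined Xist KO oocytes of a 129S1/Svj background with wild-type CAST/EiJ sperm. For SCNT, the nuclei came from embryonic fibroblasts carrying 1 knocked-out Xist allele, whose 129S1/SvImj mothers had been mated to CAST/EiJ fathers, and the recipient oocytes came from B6D2F1/J (BDF1) females. By these crosses all 4 libraries came from 129 by CAST/EiJ nuclear genomes carrying a knocked-out Xist allele, while the egg cytoplasm differed between the groups. The value columns of both SCNT libraries also bear the name kdm4d, which encodes a histone demethylase and does not occur in the labels. The sources used here do not say whether the embryos received it.

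Nodal is a secreted ligand that, with the co-receptor encoded by Tdgf1 (Cripto), binds activin receptors, and SMAD2 and SMAD3 then act with SMAD4 and FOXH1 on target genes. The Lefty proteins are both targets and secreted inhibitors of this signal, and follistatin, from Fst, traps activins. BMP4 signals through its own type I receptors to SMAD1 and SMAD5, whose best known targets are the Id genes, while ACVR2B is a type II receptor that both branches can use.

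The values were taken to be FPKM, fragments per kilobase of transcript scaled to the mapped total, a unit inferred from the tools named and from the numbers. They summed to between 933167 and 985197 per library, with 10802 to 10923 genes at 1 FPKM or more. No read counts were given, so no counting error can be attached to a value. Genes listed at 0 numbered 6527 and 6505 in the libraries numbered 1 and 5716 and 5212 in those numbered 2. All 10 epiblast and inner cell mass markers averaged at least 1 FPKM, and their summed level was 687 and 668 FPKM in IVF and 766 and 728 FPKM in SCNT. Of these markers 5 had higher and 5 lower estimates in SCNT, and for 1 the groups did not overlap. Without Utf1 the sums overlapped, at 521 and 554 FPKM in IVF and 534 and 575 FPKM in SCNT. The 10 trophectoderm markers summed to 4607 and 3863 FPKM in IVF and 6484 and 4381 FPKM in SCNT, and for 5 of them the SCNT libraries were both above the IVF libraries. The 10 primitive endoderm markers summed to 339 and 251 FPKM in IVF and 313 and 242 FPKM in SCNT, with both SCNT libraries above both IVF libraries for 3. Such a separation was seen for 18.3% of the genes tested below. Of 10 fibroblast markers 8 were under 1 FPKM in all 4 libraries, and the list summed to 3.57 and 1.79 FPKM in IVF, against 6.48 and 1.41 FPKM in SCNT. Of 8 oocyte markers none averaged 1 FPKM, and of 7 cumulus and granulosa markers Ptx3, Amh and Cyp19a1 were listed at 0 throughout. In whole embryos, fewer cells of a type and less RNA per cell cannot be told apart.

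Per unit of transcript length, the 10 members differed widely in level. Id3 had the highest mean level over the 4 libraries, 142.6 FPKM, above that of 96.0% of all listed genes. Tdgf1 followed at 61.4 FPKM, then Acvr2b at 27.4, Gdf3 at 15.5, Bmp4 at 12.0 and Id1 at 7.66 FPKM. The other 4 lay well below, Lefty2 at 0.462, Lefty1 at 0.319, Nodal at 0.156 and Fst at 0.0375 FPKM. In this order the ranges over libraries were apart between Tdgf1 and Acvr2b, between Acvr2b and Gdf3 and between Id1 and Lefty2. The other neighbours overlapped. The ligand Nodal, both Lefty inhibitors and Fst thus averaged under 1 FPKM, while the co-receptor, the type II receptor, Gdf3 and the BMP members were above 1 FPKM in every library. Both Lefty genes were above 0 in every library, and Nodal and Fst were not.

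**Figure D1:**
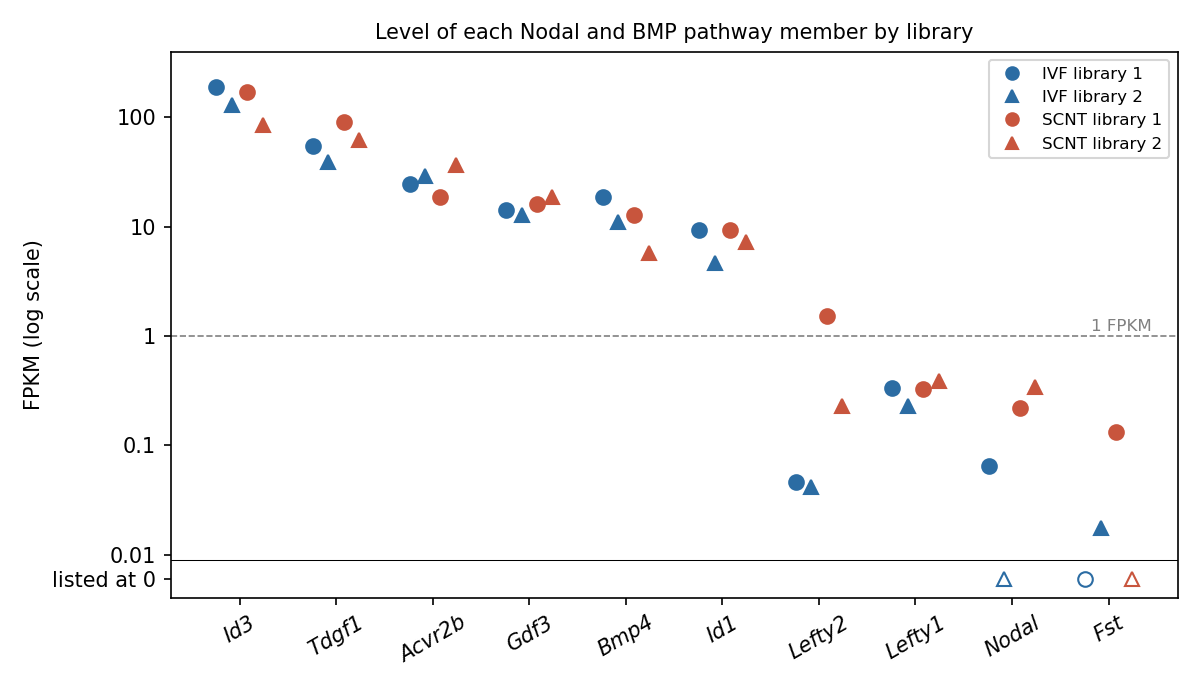
FPKM of each member on a log axis, ordered by mean level, with IVF in blue, SCNT in red, circles for libraries numbered 1 and triangles for libraries numbered 2. Open symbols at the bottom are values listed at 0, and 6 members lie above the dashed line at 1 FPKM in every library while Lefty1, Nodal and Fst lie below it in every library and Lefty2 crosses it in SCNT library 1 at 1.53 FPKM.

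The comparison of IVF with SCNT was tested with limma on log2(FPKM + 1) for the 11039 genes with a mean of at least 1 FPKM, and differences are given on that scale as SCNT minus IVF. Of the 10 members 6 entered the test and 4 were under the filter. With limma 0 of the 6 passed at an adjusted p under 0.05, where 0.127% of all tested genes did, and 0 of the 6 had an unadjusted p under 0.05, against 7.09% of tested genes. Estimates were higher in SCNT for 3 members and lower for 3, with a median of 0.12 beside 0.01 over all tested genes. That median was -0.04 without IVF library 2 and 0.26 without SCNT library 1. Both SCNT libraries were above both IVF libraries for 2 of the 6, Tdgf1 and Gdf3, a separation seen for 18.3% of tested genes. No tested member had both SCNT libraries below both IVF libraries, which 15.1% of tested genes did. An exact permutation test of a single gene cannot go below p = 0.333 with 2 libraries against 2.

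**Figure D2:**
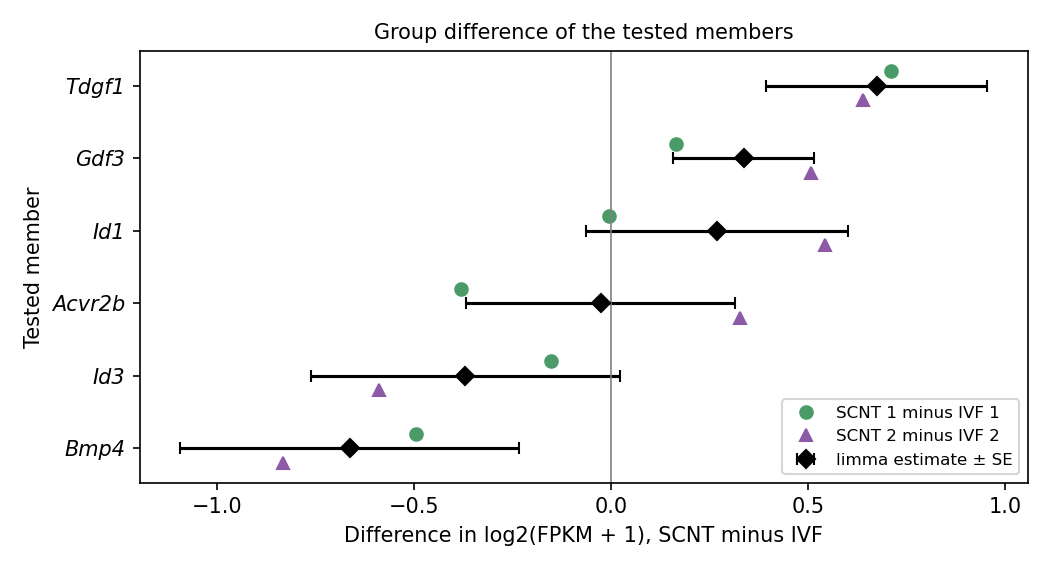
Difference in log2(FPKM + 1) between SCNT and IVF for the 6 tested members, with the limma estimate and its standard error in black, SCNT library 1 minus IVF library 1 as circles and SCNT library 2 minus IVF library 2 as triangles. Both single differences were above 0 for Tdgf1 and Gdf3 and below 0 for Bmp4 and Id3, and they had opposite signs for Acvr2b and Id1.

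Tdgf1, the co-receptor of the Nodal branch, had the largest estimate of the 6. It was at 54.7 and 39.1 FPKM in IVF libraries 1 and 2, against 90.2 and 61.5 FPKM in SCNT libraries 1 and 2. The highest 2 values were those of SCNT, and in each group the library numbered 1 was above the one numbered 2. The means were 46.9 ± 11.0 FPKM in IVF and 75.9 ± 20.3 FPKM in SCNT (SD, n = 2 each), a ratio of 1.62. The difference of 0.67 ± 0.28 (SE) did not pass with limma (adjusted p = 0.751, unadjusted p = 0.0600). It was 0.71 between the libraries numbered 1 and 0.64 between those numbered 2. The epiblast marker sum was also higher in both SCNT libraries, but not once Utf1 was left out. As a share of that sum, Tdgf1 was at 7.97% and 5.86% in IVF and 11.8% and 8.45% in SCNT, with the groups apart. Without Utf1 in the sum Tdgf1 was at 10.5% and 7.06% in IVF and 16.9% and 10.7% in SCNT, with IVF library 1 and SCNT library 2 nearly equal. Both scales were chosen after the values were seen, and the part of epiblast content in the Tdgf1 difference was not tested. Tdgf1 has a pair of processed pseudogenes in the GENCODE M21 annotation. The transcript of Tdgf1-ps1 is identical to the Tdgf1 coding sequence at 98.6% of 513 aligned bases, with a longest identical run of 154 bases, and that of Tdgf1-ps2 at 92.0% of 502. The sources used here do not say how reads were divided among such copies, and the level of Tdgf1 is uncertain to that extent.

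The promoters of Tdgf1 and Nodal are shown because these members of one pathway were both higher in the 2 SCNT libraries, and those of Bmp4 and Id3, a ligand and a target of the other branch, because both had lower estimates there. RefSeq (GRCm38.p6) promoter entries matched 5 of the 10 members by symbol, these 4 and Acvr2b. Each sequence below covers the 250 bases before the RefSeq start, 5′ to 3′ on the strand of the gene. The windows are chr9:110946159-110946408 (minus strand) for Tdgf1, chr10:61417722-61417971 (plus) for Nodal, chr14:46390670-46390919 (minus) for Bmp4 and chr4:136143572-136143821 (plus) for Id3. The expression values themselves were made on another build, mm9. Capitals mark matches on either strand to CAGAC, a core of SMAD binding elements, to AATNNACA, a core of FOXH1 sites, or to GGCGCC, a palindrome of BMP-responsive SMAD elements.
Tdgf1: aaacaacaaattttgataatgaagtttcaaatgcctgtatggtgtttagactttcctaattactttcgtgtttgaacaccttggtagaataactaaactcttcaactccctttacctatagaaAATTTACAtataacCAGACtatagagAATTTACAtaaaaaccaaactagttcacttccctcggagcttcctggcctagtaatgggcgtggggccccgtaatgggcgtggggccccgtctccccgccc
Nodal: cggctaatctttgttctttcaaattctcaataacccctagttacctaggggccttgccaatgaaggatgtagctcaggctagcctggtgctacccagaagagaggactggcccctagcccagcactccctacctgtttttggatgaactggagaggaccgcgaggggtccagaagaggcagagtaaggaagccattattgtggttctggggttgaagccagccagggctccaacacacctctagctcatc
Bmp4: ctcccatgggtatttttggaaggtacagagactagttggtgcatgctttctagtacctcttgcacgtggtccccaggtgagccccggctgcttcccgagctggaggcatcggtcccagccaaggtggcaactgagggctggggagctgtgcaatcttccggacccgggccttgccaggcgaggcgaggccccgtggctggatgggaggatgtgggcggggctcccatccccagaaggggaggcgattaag
Id3: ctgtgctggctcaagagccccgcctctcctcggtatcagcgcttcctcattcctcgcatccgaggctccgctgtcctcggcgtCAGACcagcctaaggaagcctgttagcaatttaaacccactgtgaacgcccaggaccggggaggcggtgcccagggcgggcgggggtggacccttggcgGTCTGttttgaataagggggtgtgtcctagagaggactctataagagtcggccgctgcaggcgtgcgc
The Tdgf1 window held AATNNACA at 2 places, starting 127 and 101 bases before the start, with CAGAC between them at 113 bases. Of 32851 RefSeq windows of this length, 10.9% held AATNNACA, 1.12% held it at 2 or more places and 42.2% held CAGAC. These shares were not matched for base composition. The Tdgf1 window was 42.0% G and C, the lowest of the 5 matched members, where the others ran from 53.2% to 72.8%. Id3 held CAGAC at 2 places, 167 and 68 bases before its start. The share of windows with 2 or more places was computed for AATNNACA only and not for CAGAC. The windows of Nodal and Bmp4 held none of the 3 motifs, and GGCGCC, found in 9.59% of windows, was in none of the 4. Acvr2b, whose window is not shown, held CAGAC 233 bases before its start. The motifs do not overlap in these windows, and a match is only a match of letters.

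Gdf3, a ligand of the same family that can also use Cripto and activin receptors, had the tightest values. It was at 14.2 and 12.8 FPKM in IVF, against 16.1 and 18.7 FPKM in SCNT. Again the groups did not overlap, and here the library numbered 2 was the higher of the SCNT pair. The means of 13.5 ± 0.979 and 17.4 ± 1.85 FPKM (SD, n = 2 each) gave a ratio of 1.28 and a difference of 0.34 ± 0.18 (SE) that did not pass with limma (adjusted p = 0.864). Between libraries of the same number it was 0.17 and 0.51. As a share of the epiblast marker sum, Gdf3 was at 2.07% and 1.92% in IVF and 2.099% and 2.57% in SCNT, so IVF library 1 and SCNT library 1 were nearly equal on that scale. Without Utf1 in the sum Gdf3 was at 2.73% and 2.32% in IVF and 3.01% and 3.25% in SCNT, with the groups apart.

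Nodal, Lefty1, Lefty2 and Fst were under the filter and are described without a test. To give their values a scale, FPKM was multiplied by transcript length in kilobases, using genes with 1 annotated GENCODE M21 transcript. The lowest 2% of values above 0 ended between 0.0320 and 0.0372 in the 4 libraries, and this edge is used as a rough unit of the smallest detectable signal. It is an estimate and no fragment count.

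Nodal, the ligand, was at 0.0650 and 0 FPKM in IVF, against 0.220 and 0.339 FPKM in SCNT. The SCNT values were the higher ones, at 12.4 and 21.1 times the smallest signal, where IVF library 1 was at 4.3 times and IVF library 2 was listed at 0. Among the 8709 genes under the filter with any value above 0, 14.7% had such a separation. Without a filter the difference was 0.31 ± 0.07 (SE) and did not pass over the 23235 genes then tested (limma adjusted p = 0.575, unadjusted p = 0.0255). In that fit 1750 of the 23235 genes had an unadjusted limma p under 0.05, where the 23235 include genes listed at 0 in every library.

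Lefty2, a secreted inhibitor of Nodal, was at 0.0464 and 0.0412 FPKM in IVF, against 1.53 and 0.230 FPKM in SCNT. Both IVF libraries were at 3.6 and 3.1 times the smallest signal, SCNT library 1 at 101.8 times and SCNT library 2 at 16.9 times. The 2 SCNT libraries differed more from each other, in FPKM, than SCNT library 2 did from IVF. Without a filter the difference was 0.76 ± 0.44 (SE), which did not pass (limma adjusted p = 0.884). SCNT library 1 was also the library with the highest summed fibroblast markers and trophectoderm markers. With Utf1 included, it had the highest epiblast marker sum as well. Whether any of these sums bears on Lefty2 was not tested.

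Lefty1, the other inhibitor, was at 0.336 and 0.230 FPKM in IVF, against 0.326 and 0.385 FPKM in SCNT. The groups overlapped, at 11.3 to 18.5 times the smallest signal in all 4 libraries. The 2 Lefty genes, both on chromosome 1, are close copies. Their coding sequences, of 1104 bases each in GENCODE M21, are identical at 1014 positions (91.8%), so part of the reads of either gene can be counted under the other. Lefty1 stayed within a narrow range while Lefty2 was at its highest in SCNT library 1.

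Fst, which encodes the activin trap follistatin, was listed at 0 and 0.0176 FPKM in IVF, against 0.132 and 0 FPKM in SCNT. A library of each group was thus at 0, and SCNT library 1 was the highest, at 10.1 times the smallest signal. With only a single library of each group above 0, Fst did not pass (limma without a filter, difference 0.08 ± 0.08 (SE), adjusted p = 0.932).

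Acvr2b, the type II receptor, was at 24.8 and 29.1 FPKM in IVF, against 18.8 and 36.8 FPKM in SCNT. The SCNT values enclosed the IVF values. The difference was -0.03 ± 0.34 (SE; limma adjusted p = 0.9996), with -0.38 between the libraries numbered 1 and 0.33 between those numbered 2. Without SCNT library 1 it was 0.44 and without SCNT library 2 it was -0.49, and without IVF library 2 it was 0.09, so its sign turned with the library left out.

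Bmp4, the ligand of the BMP branch, was at 18.6 and 10.9 FPKM in IVF, against 12.9 and 5.69 FPKM in SCNT. The lowest value was SCNT library 2 and the highest IVF library 1, but SCNT library 1 lay between the IVF libraries, so the groups overlapped. The means of 14.7 ± 5.42 and 9.29 ± 5.09 FPKM (SD, n = 2 each) gave a ratio of 0.630 and a difference of -0.66 ± 0.43 (SE) that did not pass with limma (adjusted p = 0.906). The difference was -0.49 between the libraries numbered 1 and -0.83 between those numbered 2. It was -0.14 without SCNT library 2 and -1.19 without SCNT library 1.

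Id3, which encodes an inhibitor of basic helix-loop-helix transcription factors, was at 188 and 128 FPKM in IVF, against 169 and 85.0 FPKM in SCNT. SCNT library 1 again lay between the IVF libraries. The difference was -0.37 ± 0.39 (SE; limma adjusted p = 0.9996), -0.15 between the libraries numbered 1 and -0.59 between those numbered 2, and it turned to 0.12 without SCNT library 2. Id1, a related gene with the same kind of product, was at 9.36 and 4.68 FPKM in IVF, against 9.32 and 7.28 FPKM in SCNT. Its SCNT values both lay between the IVF values, with a difference of 0.27 ± 0.33 (SE; limma adjusted p = 0.9996) that was -0.16 without IVF library 2. The estimates of the 2 Id genes thus had opposite signs, and neither was larger than its spread.

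Id3 was above Id1 in every library, by a ratio of FPKM of 20.1 and 27.4 in IVF and of 18.1 and 11.7 in SCNT. The ratio of Id3 to the ligand Bmp4 was 10.1 and 11.8 in IVF and 13.1 and 14.9 in SCNT. In this ratio both SCNT libraries were above both IVF libraries, since Bmp4 was proportionally lower there than Id3. It was picked after the values were seen and was not tested.

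For Tdgf1, Bmp4, Id1, Id3 and Lefty2, 5 of the 10 members, the library numbered 2 was below the library numbered 1 in both groups. For Bmp4, Id1 and Id3 the libraries of each group differed by a larger ratio than the group means did. The labels give no date or batch for the numbers, and the fit with the number as a block is given with the other settings.

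**Figure D3:**
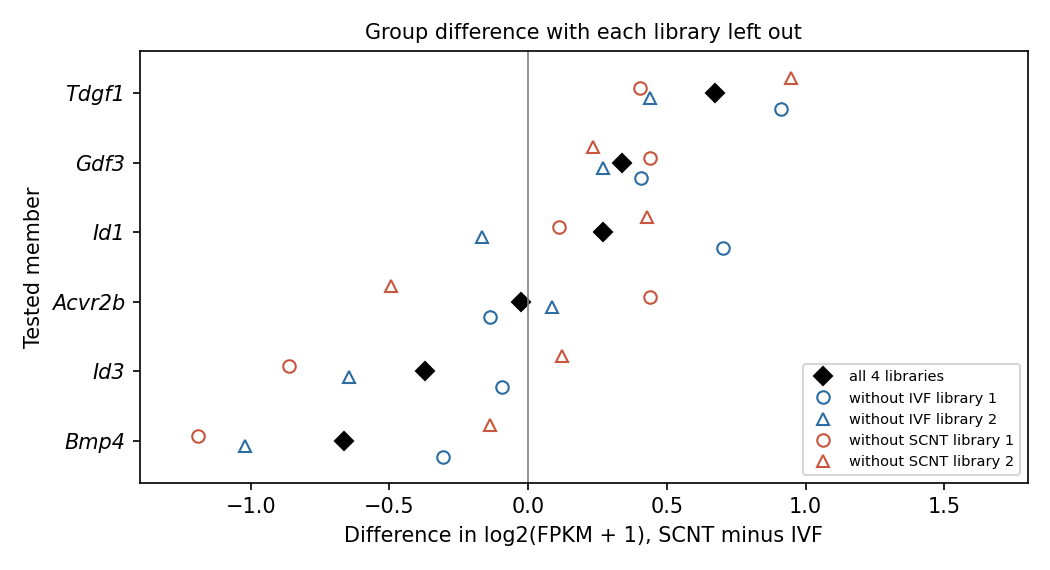
Group difference in log2(FPKM + 1), SCNT minus IVF, of the 6 tested members with all 4 libraries (black) and with each library left out in turn (open symbols). Tdgf1 stayed between 0.40 and 0.95 and Gdf3 between 0.23 and 0.44, Bmp4 stayed below 0 between -1.19 and -0.14, and Acvr2b, Id1 and Id3 took both signs.

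The other genes of the Nodal and activin pathway had estimates on both sides of 0. Of 36 listed genes 20 were tested and 0 passed with limma. An unadjusted p under 0.05 was found for 1, against 7.09% of all tested genes. Of the 20 estimates 8 were higher in SCNT and 12 lower, with a median of -0.03 beside 0.01 over all tested genes. The median ran from -0.07 to 0.08 with a library left out. Both SCNT libraries were above both IVF libraries for 3 of the 20 and below for 1, beside 18.3% and 15.1% of all tested genes. The 4 with the smallest unadjusted p were Eomes, Foxh1, Skil and Smad4, none of them past the threshold.

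Eomes, a T-box gene that Nodal induces at gastrulation and that also marks trophectoderm, was at 18.8 and 14.2 FPKM in IVF, against 43.5 and 24.4 FPKM in SCNT. The groups did not overlap, and the difference was 0.95 ± 0.32 (SE; limma adjusted p = 0.602, unadjusted p = 0.0313). Eomes is also on the list of 10 trophectoderm markers. Of these, 5, Eomes among them, had both SCNT libraries above both IVF libraries, against 18.3% of tested genes. The groups overlapped for the other markers of the list, and the estimates of Tead4 (-0.08) and Tfap2c (-0.21) were lower in SCNT. The summed level of the list, most of it from Krt8 and Krt18 at means of 1513 and 2710 FPKM, also overlapped between the groups. The part of trophectoderm in the Eomes difference was not tested. Foxh1, the DNA-binding partner of SMAD2 and SMAD3, was at 14.8 and 9.65 FPKM in IVF, against 19.8 and 17.3 FPKM in SCNT, again with the groups apart. Its difference was 0.59 ± 0.25 (SE; limma adjusted p = 0.754). Smad4, the common SMAD of both branches, differed by 0.26, and Skil, a SMAD corepressor, by -0.29.

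Of 8 further ligands of the list only Inhbb was tested, at 1.87 and 1.07 FPKM in IVF and 1.60 and 0.480 FPKM in SCNT. Among type I receptors Tgfbr1 was at 1.83 and 1.46 FPKM in IVF and 1.85 and 1.60 FPKM in SCNT, and Acvr1b was under 1 FPKM in all 4 libraries, between 0.710 and 0.835. Acvr1c averaged 0.0153 FPKM. Tgfbr2, the type II receptor for TGF-beta, was under the filter at 0.383 and 0.544 FPKM in IVF, against 1.16 and 1.45 FPKM in SCNT. Acvr2a, the other activin type II receptor, averaged 1.39 FPKM beside 27.4 FPKM for Acvr2b. Smad2 was steady at 4.78, 4.67, 4.75 and 4.61 FPKM over IVF 1, IVF 2, SCNT 1 and SCNT 2, and Smad3 averaged 2.27 FPKM. Cfc1 (Cryptic), the relative of Tdgf1, was at 14.6 and 21.5 FPKM in IVF, against 12.6 and 22.4 FPKM in SCNT, with a difference of -0.07. Of the 3 tested convertases that cleave such ligands, Pcsk6 was the highest, averaging 31.5 FPKM. The targets Mixl1, T and Fgf5, known from later stages, were under 0.2 FPKM in all 4 libraries, while the target Gsc was at 12.2 and 6.07 FPKM in IVF, against 7.80 and 4.80 FPKM in SCNT.

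**Figure D4:**
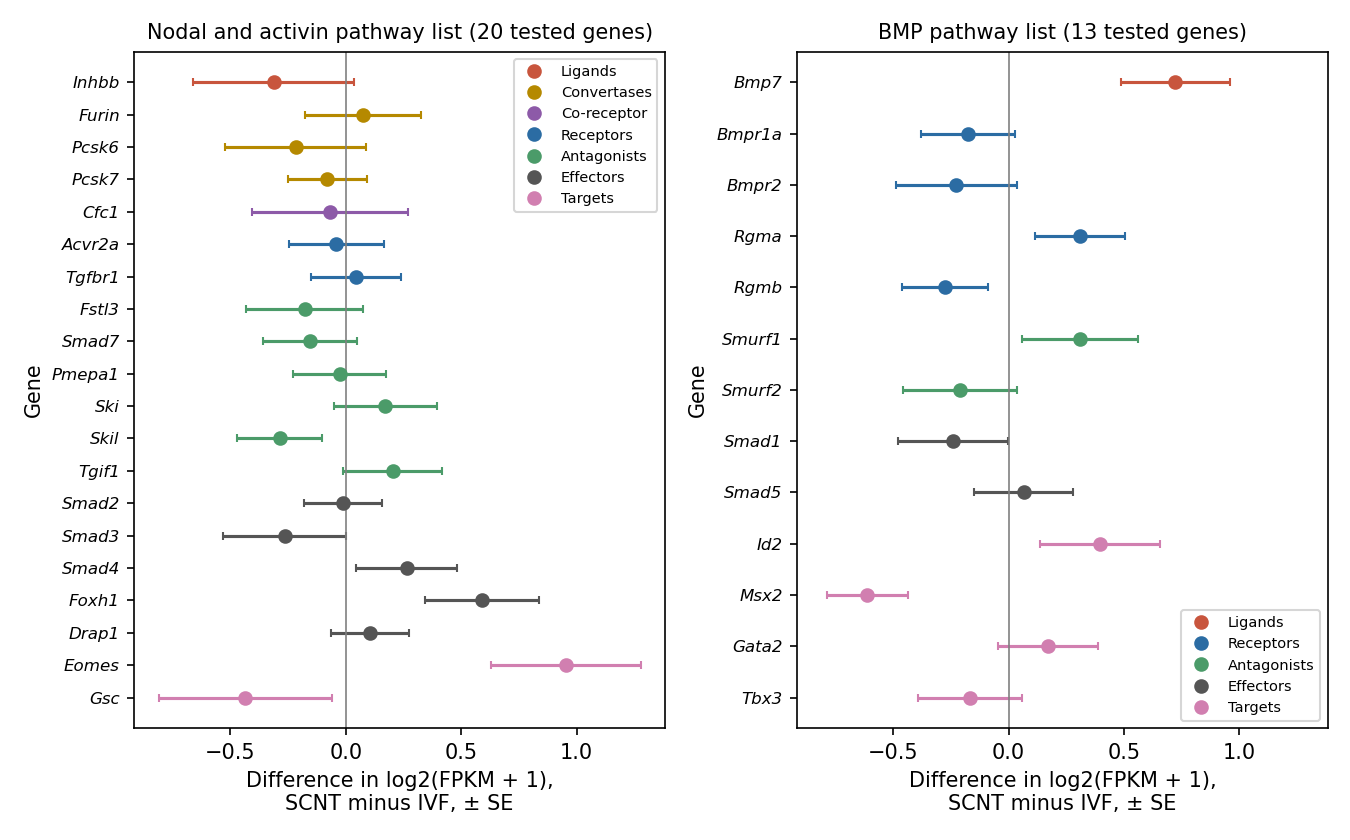
Difference in log2(FPKM + 1), SCNT minus IVF, with its standard error for the 20 tested genes of the Nodal and activin list (left) and the 13 of the BMP list (right), coloured by role. Estimates lie on both sides of 0 in both lists, from -0.43 for Gsc to 0.95 for Eomes on the left and from -0.61 for Msx2 to 0.72 for Bmp7 on the right.

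Of 31 listed genes of the BMP pathway 13 were tested. With limma 0 passed, and an unadjusted p under 0.05 was found for 2, 1 in each direction, against 7.09% of all tested genes. Both SCNT libraries were above both IVF libraries for 3 of the 13 and below for 2, beside 18.3% and 15.1% of all tested genes. Of the 13 estimates 6 were higher in SCNT and 7 lower, with a median of -0.17. That median took both signs when a library was left out. The 4 with the smallest unadjusted p were Msx2, Bmp7, Rgma and Id2, none of them past the threshold.

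Msx2, a homeobox gene and BMP target, was at 5.41 and 5.81 FPKM in IVF, against 3.13 and 3.53 FPKM in SCNT. The SCNT values were the lower ones in both libraries, and the difference was -0.61 ± 0.18 (SE; limma adjusted p = 0.517, unadjusted p = 0.0169). Bmp7, another ligand, was at 1.12 and 0.898 FPKM in IVF, against 1.82 and 2.88 FPKM in SCNT, with a difference of 0.72 ± 0.24 (SE; limma adjusted p = 0.574). The estimates of Bmp7 and Bmp4 thus pointed in opposite directions. Rgma, a BMP co-receptor, differed by 0.31. Id2, the third Id gene and one that trophectoderm expresses, was at 482 and 705 FPKM in IVF, against 744 and 792 FPKM in SCNT, far above Id3 and Id1, with a difference of 0.40 ± 0.26 (SE; limma adjusted p = 0.907).

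Among the receptors of the BMP list, which does not hold Acvr2b, Bmpr1a was the most abundant, at 10.8 and 13.1 FPKM in IVF, against 9.33 and 11.6 FPKM in SCNT, and Bmpr2 averaged 2.34 FPKM. Acvr1 was between 0.498 and 0.637 FPKM and Bmpr1b under 0.03 FPKM in all 4 libraries. The BMP SMADs were low, with Smad1 averaging 1.11 and Smad5 1.05 FPKM, beside 13.1 FPKM for Smad4. The secreted antagonists Nog, Chrd and Grem1 were each under 0.4 FPKM in every library. On the same antagonist list Twsg1 was at 0.772 and 0.636 FPKM in IVF, against 1.20 and 1.25 FPKM in SCNT. Bambi went the other way, at 0.850 and 0.609 FPKM in IVF, against 0.361 and 0.590 FPKM in SCNT, with the libraries numbered 2 nearly equal. Both were under the filter and were not tested. Of genes under the filter with any value above 0, 14.7% had both SCNT libraries above both IVF libraries, as Twsg1 did.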

How the data were processed

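The authors deposited 1 value per gene symbol and library. The values were taken to be FPKM, a unit inferred from Cufflinks in the submitters' processing notes, because the column names, per the file headers, state no unit. The submitters' processing notes list Cufflinks 2.2.1, TopHat2 2.0.14, Bowtie2 2.1.0 and the mouse build mm9. The sources used here do not give the annotation, strand use, filters or scaling. Per the labels' protocols, cDNA was amplified from lysed embryos with a SMARTer Ultra Low Input kit before shearing and library preparation, a step that makes low genes noisier.

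Samples were grouped by title. Genes with a mean of at least 1 FPKM over the 4 libraries were tested with limma 3.58.1 (R 4.3.3) on log2(FPKM + 1), with a trended prior variance, 1 term for group and Benjamini-Hochberg adjustment over all 11039 tested genes, and the threshold was an adjusted p under 0.05. The log2(FPKM + 1) scale understates changes of low genes. The fit was tested on simulated data. The labels do not say whether the 2 libraries of a group had separate parents, so their spread, on which the p-values rest, may be technical. The members and gene lists were chosen with earlier results of these data known. Named genes are all 10 members, the 4 genes of each pathway list with the smallest unadjusted p, and receptors and SMADs as levels. Further list genes given as levels or range ends (such as Cfc1, Pcsk6, Gsc and Chrd) were picked after their values were seen. The symbols Tmepai and Smad8, other names of the listed Pmepa1 and Smad9, had no row. Promoters came from RefSeq (GRCm38.p6) and transcripts from GENCODE M21, compared with Biopython 1.88. Alternatives were 2 pseudocounts, 2 filters, 2 scalings, the replicate number as a block and each library left out. Some listed items are not reported here.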

Additional observations from a re-analysis of the deposited data

How the results depend on the processing

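With limma 0 of the tested members passed under any of the 11 alternatives. The estimates of Tdgf1, Gdf3 and Bmp4 kept their sign under all 11. With each library left out in turn, the difference ranged from -0.49 to 0.44 for Acvr2b, from -0.16 to 0.70 for Id1 and from -0.86 to 0.12 for Id3. The median of the BMP list was 0 without a filter, 0.17 with the filter at a mean of 5 FPKM, where 5 of its genes were tested, and between -0.093 and 0.068 with a library left out. Where a library is left out, the lone library of its group is assumed to vary like the other pair. Over all genes, 14 passed. The number was 9 after small nucleolar RNA and microRNA genes had been removed and the libraries rescaled, 36 to 43 with a library left out, and 0 without a filter, where 1750 of 23235 genes had an unadjusted limma p under 0.05. The cause of these moves was not tested. The libraries share only a number in their titles. Across tested genes the difference of library 1 from library 2 correlated between IVF and SCNT with a Pearson r of 0.309, and with the replicate number as a block 20 genes passed. Under this block the differences were unchanged and the limma adjusted p was 0.102 for Tdgf1 (0.67), 0.160 for Bmp4 (-0.66), 0.310 for Id3 and 0.333 for Gdf3. These were the lowest over the alternatives, and the highest was 1 for each of the 4 genes. The unadjusted p of Tdgf1 under the block was 0.00190, where 1832 genes were under 0.05. Since read counts were not given, the precision of the low members Nodal, Lefty1, Lefty2 and Fst is unknown.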
